A study of Mus musculus with 16 samples.

Results

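The response of brown adipose tissue (BAT) to 24 h of cold was measured on 6 of the 16 arrays of a study of BAT, white adipose tissue and liver. The 6 arrays were chosen by their titles, 3 named Brown Warm and 3 named Brown Cold. The mice were female C57BL/6 animals, housed singly under 16 h of light and 8 h of dark with free access to chow and bedding. The room temperature group stayed at 22 °C for 72 h, and the cold group spent 48 h at 22 °C and the last 24 h at 8 °C. No genetic modification is named in the sources used here, and the RNA of 3 animals per temperature was handled separately. RNA was hybridized to Illumina MouseWG-6 bead arrays, whose 46643 probes each report 1 stretch of a transcript. The 15515 probes with a detection score of at least 0.95 on 2 or more of the 6 arrays were tested. Probes are divided here into 365 "White-bright" probes, at least 8-fold brighter on the 6 arrays titled White than on the BAT arrays, and the 15150 others.

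Brown fat makes heat. Noradrenaline from sympathetic nerves acts on beta-adrenergic receptors of the brown adipocyte, cyclic AMP rises, protein kinase A releases fatty acids from lipid droplets, and the fatty acids both open and feed uncoupling protein 1 in the mitochondria. The same cascade switches on genes for mitochondria, fatty acid elongation and the local activation of thyroid hormone, and the tissue draws on glucose, lipoprotein lipid and its own triglyceride stores as fuel.

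The BAT arrays carried the defining transcripts of brown fat at both temperatures. Of 12 brown adipocyte markers on the array, 10 were detected on all 6 arrays, and their summed signal was 55157 to 61860 at 22 °C and 60796 to 70262 at 8 °C. Signals are in arbitrary units after background subtraction, so a dim probe can fall below 0. The summed signal of 11 adipocyte markers was 34478 to 38039 over all 6 arrays. Markers of other cell types were detected too. Of 14 skeletal muscle markers 13 were detected on every array, with a summed signal of 50565 to 76102 at 22 °C and 36820 to 51845 at 8 °C. The summed signal of 10 macrophage markers was 853 to 1275 and 633 to 822, and that of 10 endothelial markers 3677 to 4178 and 3219 to 4127. Hepatocyte markers stood apart by temperature, with summed signals over 15 genes of 13023, 5239 and 11671 at 22 °C and 1262, 1411 and 1642 at 8 °C. In RNA of a whole tissue, fewer cells of a type and less RNA per cell cannot be told apart. The arrays titled White, labelled as white fat, read low for several defining adipocyte genes, with mean signals of 28.3 for Adipoq, the adiponectin gene, 13.4 for Cidec and -4.02 for Lep, though Pnpla2 read 779 and Cebpa, which hepatocytes also express, 3644. They carried hepatocyte products at the top of the scale, such as Apoa2 at 17738. They are used here only to sort the probes.

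At an adjusted p under 0.05 (limma, Benjamini-Hochberg over all tested probes), 182 probes rose in the cold, which is 1.17% of those tested, and 266 fell, which is 1.71%. Before adjustment, 1445 had a p under 0.05 and were higher, and 1594 were lower. Counted without a test, 93 probes (0.599%) were at least 2-fold higher in the cold with no overlap between the 3 cold and 3 room temperature values, and 174 (1.12%) were at least 2-fold lower. For a single probe the smallest exact two-sided permutation p with 3 against 3 arrays is 0.1. The counts depended on single arrays: the higher count was 92, 156 and 55 without room temperature replicate 1, 2 or 3, and 51, 276 and 66 without cold replicate 1, 2 or 3. The lower count was 158, 266 and 137, and 125, 343 and 135, in the same order. Without background correction 40 probes were higher and 139 lower. Of the genes described here, the calls of the second Cxcl14 probe, Abhd1, Gadd45g, Tsc22d1, E2f2, Hsph1, Gpam, the dim Mrpl3 probe, Ier3, Mrpl20, Dusp6, Mrrf, Esrrb, Sgk1, Atf4, Esrra, Col5a1, Col18a1, Plin4, Rasd1, Hspa12a, Eef2, Cdsn, Mfsd2a, Fads1, Cyp8b1 and Mat1a also ended without it (adjusted p from 0.0569 for Mat1a to 0.194 for Eef2), beside those given with their own value. A fit of all 16 arrays ended those of Abhd1, Tsc22d1, E2f2, Gpam, the dim Mrpl3 probe, Ier3, Mrpl20, Mrrf, Esrrb, Sgk1, Atf4, Col5a1, Col18a1, Plin4, Cirbp, Hspa12a, Eef2, Cyp8b1 and Cyp3a11 (from 0.0502 for Esrrb to 0.202).

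The 2 classes moved differently. Of the 365 White-bright probes 108 fell (29.6%) and 2 rose, with a median log2 difference of -0.52, whereas of the other 15150 probes 158 fell (1.04%) and 180 rose (1.19%), with a median of 0.02. The White-bright count of falls is a description, because 117 of the 365 probes were detected at 22 °C alone and entered the test only through the group where they were high. Of the 157 detected on all 6 arrays, 33 fell. Outside the class, 712 probes were detected at 22 °C alone and 228 at 8 °C alone, and 18 falls and 5 rises came from these. A gene given below with a fold of "at least" was detected at 1 temperature alone and entered the test only through that group. Among named genes, 127 outside the White-bright class had a probe that rose and 118 a probe that fell, and within it 2 and 91. At the other end, 311 probes were at least 8-fold brighter on BAT than on the White arrays, and 17 of these rose (5.47%) and 11 fell (3.54%).

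**Figure D1:**
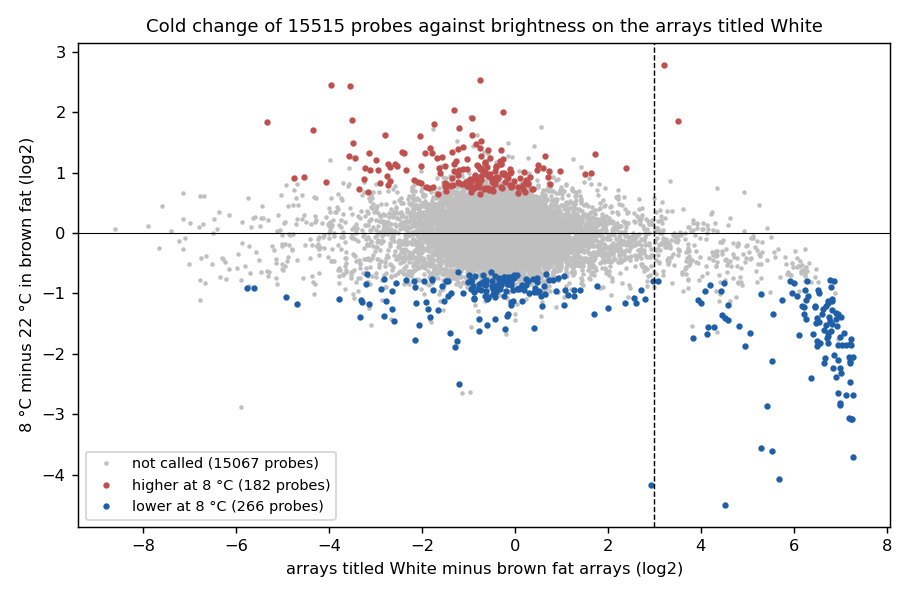
Each point is 1 of the 15515 tested probes, with the log2 difference between the White and BAT arrays on the x axis and the log2 difference between 8 °C and 22 °C in BAT on the y axis. Red points rose, blue points fell and grey points did not pass; the dashed line at 3 marks the start of the White-bright class, where 108 of 365 probes are blue.

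Of the brown adipocyte markers, Ucp1, Cidea and Cox8b were among the brightest probes at both temperatures. Others were far dimmer, such as Zic1 at 16, 38.5 and 12.5 at 22 °C and 58.3, 43.2 and 73.7 at 8 °C. Ucp1, the uncoupling protein itself, had signals of 12118, 11875 and 14893 at 22 °C and 15527, 13678 and 11788 at 8 °C, which overlapped throughout. Its log2 difference was 0.04 (95% interval -0.33 to 0.41, adjusted p = 0.934). Cidea, which encodes a lipid droplet protein of brown fat, had signals of 13549, 12658 and 17115 at 22 °C and 17111, 14942 and 14403 at 8 °C (adjusted p = 0.852), and Cox8b, a brown fat and muscle subunit of cytochrome oxidase, had signals of 15602, 14009 and 15264 at 22 °C and 18660, 15663 and 16243 at 8 °C (adjusted p = 0.749). The groups overlapped for Ucp1 and Cidea. For Cox8b the lowest cold signal lay just above the highest room temperature signal, and the normalized values overlapped. The brightest probe of each array read 16573 to 21572, so these 3 lay near the top of the scale. Whether the scale understates a change at this brightness was not tested, so the small Ucp1 difference does not show that its level stayed the same.

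Of 30 genes listed as the thermogenic programme 24 were tested, 4 rose and 1 fell, beside 1.17% and 1.71% of all probes, with a median log2 difference of 0.15 beside 0.00 over all 8591 named genes tested. Elovl3, the elongase that makes very long chain fatty acids and a classical cold-inducible gene of brown fat, had signals of 15.8, 26.8 and 3.5 at 22 °C and 120, 75.8 and 117 at 8 °C. Every cold value lay above every room temperature value, and the gene rose 3.75-fold (log2 difference 1.91, SE 0.24, adjusted p = 0.0018). It passed without each single array, and its adjusted p was 0.0803 with no background correction. Folds are taken between background-corrected values with an offset of 16 added, which understates the change of a probe as dim as this one.

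Dio2, the deiodinase that converts thyroxine to the active hormone, had signals of -2.5, 7.1 and -0.7 at 22 °C and 25.1, 35.7 and 85.6 at 8 °C and was not detected on any room temperature array. The groups did not overlap. It rose at least 2.14-fold (adjusted p = 0.0252), a bound set by the lowest detected signals, and the call ended without room temperature replicate 1 (adjusted p = 0.0750) or 3 (0.0846). With an offset of 50 added after background correction its adjusted p was 0.0809. Ffar4, the receptor for long chain and omega-3 fatty acids also called GPR120, had signals of 369.5, 258 and 345 at 22 °C and 853, 855 and 1664 at 8 °C. It rose 3.24-fold (adjusted p = 0.00612, and 0.0637 with no background correction), and the groups did not overlap. Esrra, an orphan nuclear receptor that drives mitochondrial genes together with PGC-1α, had signals of 544, 564 and 479 at 22 °C and 982, 831 and 884 at 8 °C. It rose 1.68-fold (adjusted p = 0.0316), but lost its call when any of 5 arrays was left out (up to 0.118, without cold replicate 1).

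Ppargc1a encodes that coactivator, PGC-1α. Its signals were 144, 158 and 171 at 22 °C and 209, 231 and 423 at 8 °C, with no overlap between the groups, but the difference did not pass (log2 0.75, SE 0.24, adjusted p = 0.117), and cold replicate 3 was far above the other cold arrays. Fgf21, a hormone that brown fat secretes in the cold, had signals of 6.4, 26.4 and 4.9 at 22 °C and 48.2, 30.1 and 97.7 at 8 °C (adjusted p = 0.0615). Cebpb, a transcription factor of early adipocyte differentiation, had signals of 1702, 2241 and 2094 at 22 °C and 3062, 2426 and 2973 at 8 °C (log2 0.51, adjusted p = 0.142). In these 3 genes each cold value was above each room temperature value, and none passed.

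Ppara and Prdm16 had lower values in the cold. Ppara, the nuclear receptor that switches on fatty acid oxidation, had signals of 171, 151 and 219 at 22 °C and 57.3, 70.5 and 51.5 at 8 °C. It fell 2.6-fold (adjusted p = 0.00284) with no overlap and passed without each array. Prdm16, which keeps precursors in the brown fat lineage, had signals of 131, 75.2 and 87.6 at 22 °C and 34.8, 54 and 63.5 at 8 °C, also without overlap, and did not pass (log2 -0.77, adjusted p = 0.0935).

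**Figure D2:**
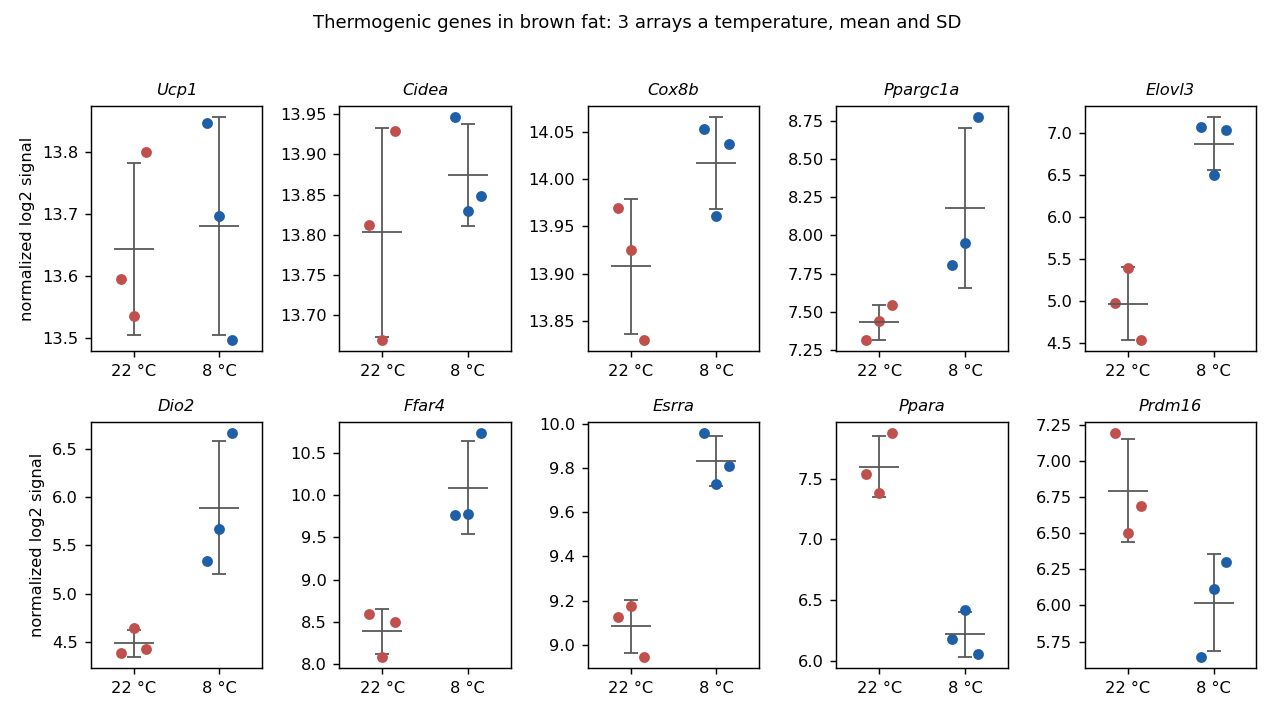
Normalized log2 signals of 10 genes of brown fat identity and heat production on each BAT array, red at 22 °C and blue at 8 °C, with the mean and SD of 3 arrays as bars; each panel has its own y axis, which does not start at 0. The temperatures overlap for Ucp1, Cidea and Cox8b and are apart for the other 7 genes.

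Of 16 tested genes of lipolysis and lipid droplets 1 rose and 1 fell, beside 1.17% and 1.71% of all probes. G0s2, an inhibitor of adipose triglyceride lipase, had signals of 1917, 1305 and 1433 at 22 °C and 4036, 3710.3 and 4098 at 8 °C. It rose 2.54-fold (adjusted p = 0.00315) with no overlap and passed without each array. The lipase it inhibits, Pnpla2, had signals of 11976, 11563 and 11067 at 22 °C and 13882, 13548 and 11846 at 8 °C (adjusted p = 0.670), and Lipe, the hormone-sensitive lipase, 755, 602 and 905 at 22 °C and 482, 634 and 358 at 8 °C (adjusted p = 0.162). Both overlapped between the temperatures. Plin4, a lipid droplet coat protein, had signals of 5614, 4543 and 6034 at 22 °C and 2912, 2739 and 2918 at 8 °C. It fell 1.87-fold (adjusted p = 0.0163), and the call was lost without any one of 4 arrays (up to 0.0713, without room temperature replicate 3). No other gene of the list passed.

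A pair of receptors by which adipocytes sense their own fuels fell together. Hcar1 encodes the lactate receptor and Hcar2 the receptor for beta-hydroxybutyrate and niacin, both of which restrain lipolysis. Hcar2 signals were 85.9, 61.9 and 125 at 22 °C and 14.6, 10.5 and 8.5 at 8 °C, a fall of 3.71-fold (adjusted p = 0.00122). Hcar1 signals were 175, 92.8 and 227 at 22 °C and 32.1, 46.8 and 26.7 at 8 °C, a fall of 3.42-fold (adjusted p = 0.00637, and 0.0605 with no background correction). Neither overlapped, and both passed without each array. Ptger3, a prostaglandin E2 receptor that also couples to the inhibitory G protein, had signals of 80.8, 218 and 72.8 at 22 °C and 5.2, -4.3 and 1.9 at 8 °C and was not detected in the cold. It fell at least 4.27-fold (adjusted p = 0.00179) and passed without each array, but entered the test only through the room temperature group. Hcar1, Hcar2 and Ptger3 were among the 10 largest falls outside the White-bright class, and their grouping by receptor type was made after their values were seen.

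Fatty acid uptake and triglyceride synthesis had 18 genes tested, 1 of which rose and 1 fell, beside 1.17% and 1.71% of all probes. Gpam, the first enzyme of glycerolipid synthesis, had signals of 34, 37.5 and 36.2 at 22 °C and 126, 66.3 and 151 at 8 °C. It rose 2.43-fold (adjusted p = 0.0173), and the call ended without room temperature replicate 3 or cold replicates 1 or 3 (up to 0.0949, without cold replicate 1). Angptl4, a secreted inhibitor of lipoprotein lipase, had signals of 1839, 2514 and 2522 at 22 °C and 654, 1106 and 788 at 8 °C. It fell 2.69-fold (adjusted p = 0.00603, and 0.0614 with no background correction) with no overlap. Of 17 genes of fatty acid synthesis and elongation 1 rose and 1 fell, beside the same shares of all probes. Elovl3 rose and Fads1, the delta-5 desaturase, fell (414, 518 and 621 at 22 °C and 225, 253 and 292 at 8 °C, 1.95-fold, adjusted p = 0.0219). The call of Fads1, a White-bright gene, ended without any one of 3 arrays (up to 0.102, without cold replicate 1). Slc25a10, the mitochondrial dicarboxylate carrier and a gene chosen after its values were seen, had signals of 437, 458 and 391 at 22 °C and 149.7, 150.3 and 181 at 8 °C and fell 2.54-fold (adjusted p = 0.00153). It passed without each array.

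Few genes of the combustion machinery passed, beside 1.17% higher and 1.71% lower over all tested probes. Before adjustment, 1445 of all 15515 probes were higher and 1594 lower. On simulated data the fit recovered 0 of 50 probes changed by 0.5 log2 units, so a lack of calls does not show unchanged levels. The oxidative phosphorylation genes were bright, with a median normalized log2 signal of 13.0 at both temperatures. By limma 0 of 27 nuclear genes of oxidative phosphorylation passed (before adjustment, 3 were higher and 0 lower; the median log2 difference was 0.08) and 0 of 17 of glucose uptake and glycolysis (2 and 1; median 0.13). Of 20 genes of mitochondrial fatty acid oxidation, Ppara alone passed, and the median was 0.19. The mitochondrial ribosome had 2 of 25 genes higher and 0 lower (8 higher and 0 lower unadjusted), with a median of 0.21. The 2 were Mrpl20, a large subunit protein (767, 866 and 589 at 22 °C and 1268, 1364 and 1867 at 8 °C, 2-fold, adjusted p = 0.0266), and Mrrf, which recycles the ribosome after translation (70.4, 102 and 93 at 22 °C and 213, 131 and 237 at 8 °C, 1.98-fold, adjusted p = 0.041). Neither call was firm: that of Mrpl20 ended without any one of 4 arrays (up to 0.1, without cold replicate 3) and that of Mrrf without any one of 5 (up to 0.151, without cold replicate 1). Mrpl3 was read by a pair of probes, of which the dimmer passed (adjusted p = 0.0389) and the brighter did not (0.12). Cycs, cytochrome c, did not pass (log2 0.37, adjusted p = 0.24).

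Of 17 immediate early genes and MAP kinase phosphatases tested, 4 rose and 0 fell (4 and 1 unadjusted, by limma), beside 1.17% and 1.71% of all probes. Dusp1, a phosphatase that switches off p38 and JNK, had signals of 355, 477 and 292 at 22 °C and 949, 1182 and 1123 at 8 °C. It rose 2.88-fold (log2 difference 1.53, SE 0.20, adjusted p = 0.00252) with no overlap and passed without each array. Nr4a2, an orphan nuclear receptor induced by cyclic AMP, had signals of 35.5, 25 and 28.5 at 22 °C and 76.6, 71 and 94.3 at 8 °C, again with no overlap. It rose 2.13-fold (adjusted p = 0.0068). The other 2 were Dusp6, which acts on ERK (1.98-fold, adjusted p = 0.0243), and Ier3 (2.12-fold, adjusted p = 0.0413), and their calls were lost without any one of 4 and 5 arrays (up to 0.0887 and 0.137, both without cold replicate 3). The best known members did not pass, with Egr1 at 46.1, 80.5 and 39.7 at 22 °C and 67.7, 26.9 and 36.2 at 8 °C and Jun at 89.1, 135 and 82.1 at 22 °C and 64.4, 101 and 68.4 at 8 °C, both overlapping.

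Several hormone receptors and signalling genes changed beside them. Npr3, the clearance receptor for natriuretic peptides, which are lipolytic hormones, had signals of 111, 129 and 91.7 at 22 °C and 256, 289.5 and 356 at 8 °C. It rose 2.51-fold (adjusted p = 0.0035) with no overlap. Pth1r, the receptor of parathyroid hormone, had signals of 69.5, 86.5 and 71.5 at 22 °C and 12.9, 9.5 and 25.1 at 8 °C and fell 2.88-fold (adjusted p = 0.00189). Pkia, an inhibitor protein of protein kinase A, had signals of 719, 535 and 476 at 22 °C and 237, 270.4 and 226 at 8 °C and fell 2.25-fold (adjusted p = 0.00742, and 0.0614 with no background correction). All 3 passed without each array. Npr3 and Pkia were chosen after their values were seen. Rasd1, a Ras-like protein of G protein signalling, fell 2.75-fold (adjusted p = 0.0173), and the call ended without room temperature replicate 1 (0.0548) or 3 (0.0510).

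**Figure D3:**
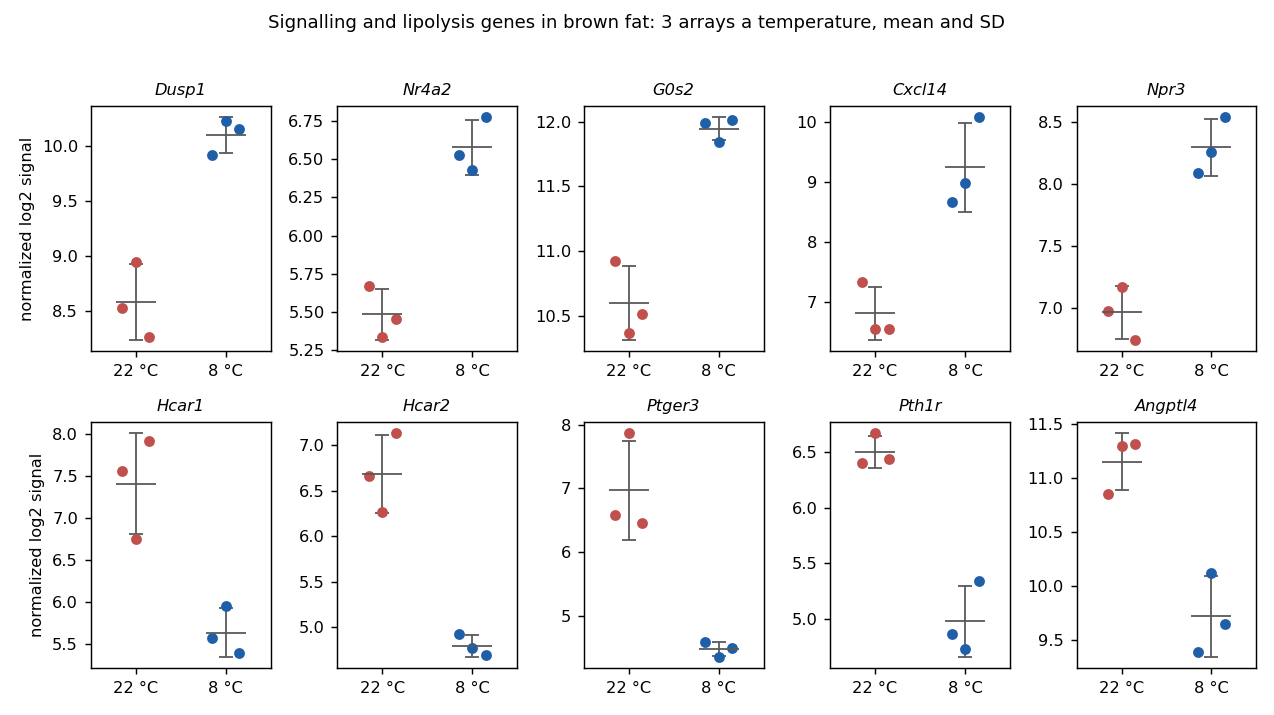
Normalized log2 signals of 10 genes of signalling, lipolysis and secretion on each BAT array, red at 22 °C and blue at 8 °C, with the mean and SD of 3 arrays as bars; each panel has its own y axis, which does not start at 0. Dusp1, Nr4a2, G0s2, Cxcl14 (the probe with the larger change) and Npr3 are higher on every cold array, and Hcar1, Hcar2, Ptger3, Pth1r and Angptl4 are lower on every cold array.

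Nuclear receptors had 3 of 22 genes higher and 2 lower, beside 1.17% and 1.71% of all probes. Beside Nr4a2, Esrra and Ppara, Esrrb, a relative of Esrra, rose 1.97-fold from signals of 19.5, 26.9 and 8.7 at 22 °C and 49.9, 59.7 and 44.8 at 8 °C (adjusted p = 0.0262), and the call was lost without any one of 5 arrays (up to 0.0973, without cold replicate 1). Nr1h4, the bile acid receptor and a White-bright gene, had signals of 27.7, 29.8 and 33.3 at 22 °C and 6.5, 1.7 and -1.4 at 8 °C and was not detected in the cold. It fell at least 1.55-fold (adjusted p = 0.00679) and passed without each array, but entered the test only through the room temperature group. Nr1i3 and Rxrb did not pass (log2 0.32 and 0.38, adjusted p = 0.31 and 0.299). None of 12 clock genes passed limma (0 higher and 2 lower unadjusted).

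The secreted protein with the largest rise outside the White-bright class was the chemokine Cxcl14, which brown fat releases to attract macrophages. The probe with the larger change had signals of 145, 78 and 78.4 at 22 °C and 391, 491 and 1056 at 8 °C, and it rose 5.43-fold (adjusted p = 0.00336, and 0.0561 with no background correction). A second, brighter probe of the gene rose 3.64-fold (0.00487), and both passed without each array. Sparc, a matrix glycoprotein, had signals of 32.7, 43.9 and 28.9 at 22 °C and 94.7, 95.9 and 119.6 at 8 °C and rose 2.36-fold (adjusted p = 0.00402). Ctsz, a lysosomal carboxypeptidase, had signals of 718, 715 and 815 at 22 °C and 1867, 1506 and 2647 at 8 °C and rose 2.59-fold (adjusted p = 0.00612, and 0.0614 with no background correction). Neither overlapped between temperatures. Of 23 tested genes of the extracellular matrix list 1 rose, Sparc, and 2 fell, beside 1.17% and 1.71% of all probes. The 2 were the collagen genes Col5a1 (1.74-fold, adjusted p = 0.049) and Col18a1 (1.81-fold, adjusted p = 0.039). Their calls were lost without any one of 5 and 6 arrays (up to 0.163, without cold replicate 1, and 0.134, without cold replicate 3).

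Other large rises outside the White-bright class were those of Cenpo, a centromere protein, with signals of 64.9, 71.5 and 72.3 at 22 °C and 301, 189.9 and 257 at 8 °C (3.08-fold, adjusted p = 0.00128), and Cables1, a regulator of cyclin-dependent kinases, with 291, 466 and 248 at 22 °C and 954, 778 and 1109.7 at 8 °C (2.82-fold, adjusted p = 0.00679, and 0.068 with no background correction). Both passed without each array. Gadd45g, a stress sensor induced by beta-adrenergic stimulation in brown fat, rose 3.04-fold (adjusted p = 0.0148, and 0.0639 without cold replicate 3). Tsc22d1, a leucine zipper protein, rose 2.77-fold (adjusted p = 0.014, and 0.0741 without cold replicate 1). The calls of Abhd1 (3.09-fold, adjusted p = 0.025) and the cell cycle factor E2f2 (2.68-fold, adjusted p = 0.0252) ended without any one of 3 and 4 arrays (up to 0.121 and 0.113, both without cold replicate 1). The Cenpo and Abhd1 probes given here are not the brightest tested probes of their genes. On the lower side, Recql4, a DNA helicase, had signals of 47.8, 72.6 and 59.9 at 22 °C and 10.7, 4.2 and 1.2 at 8 °C. It fell at least 2.55-fold (adjusted p = 0.00102), was not detected in the cold and entered the test only through the room temperature group. Cdsn, corneodesmosin, had signals of 75.7, 84.7 and 79.3 at 22 °C and 7.9, 24.1 and -1.9 at 8 °C and fell 3.43-fold (adjusted p = 0.00177). Recql4 and Cdsn passed without each array. The calls of Hspa12a (2.86-fold, adjusted p = 0.0187) and of a dim probe of Eef2 (2.96-fold, adjusted p = 0.0494) ended without any one of 3 and 5 arrays (up to 0.102 and 0.151, both without cold replicate 1).

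Stress lists held few calls, beside 1.17% higher and 1.71% lower over all tested probes. Of 21 chaperones and unfolded protein response genes 2 rose, the heat shock protein Hsph1 (2.58-fold, adjusted p = 0.0187) and the transcription factor Atf4 (1.7-fold, adjusted p = 0.035), and Cirbp, the cold-inducible RNA-binding protein, fell from signals of 56.4, 32.9 and 23.8 at 22 °C and 0.7, 2.6 and 8.2 at 8 °C, a fall of at least 1.75-fold (adjusted p = 0.0201). Each of the 3 lost its call without any one of several arrays, 3, 6 and 3 in that order (up to 0.082 without cold replicate 3, 0.12 without room temperature replicate 3 and 0.0953 without cold replicate 1). Of 15 stress hormone responsive genes Sgk1 alone rose (1.91-fold, adjusted p = 0.0371), lost without any one of 4 arrays (up to 0.133, without cold replicate 3). None of 27 proteasome subunits passed limma (1 higher and 1 lower unadjusted) and none of 14 genes of cholesterol synthesis (6 higher and 0 lower unadjusted, with a median log2 difference of 0.32).

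The largest falls in BAT were in products of the liver. Mup2, a major urinary protein secreted by hepatocytes, had signals of 8780.2, 7620.4 and 12590.2 at 22 °C and 228, 587 and 1069 at 8 °C, a fall of 18-fold (adjusted p = 0.000787, and 0.0514 with an intensity trend and robust variances). Its log2 difference between the White and BAT arrays was 2.93, just outside the White-bright class. Within the class, Apoa2, an apolipoprotein of high density lipoprotein, had signals of 4180, 2309.8 and 4742 at 22 °C and 32.9, 206 and 345 at 8 °C, a fall of 22.6-fold (adjusted p = 0.00229). Ttr, the plasma carrier of thyroxine, had signals of 1539, 582 and 1251 at 22 °C and 13.1, 48.2 and 118 at 8 °C, a fall of 16.8-fold (adjusted p = 0.00138). None of these 3 overlapped between the temperatures, and all passed without each array. Apoa2 and Ttr had adjusted p of 0.0908 and 0.0678 with an intensity trend and robust variances. With no background correction they had 0.0614 and 0.0579.

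Other liver products fell in the same way. Fga, the alpha chain of fibrinogen, had signals of 387, 235 and 452 at 22 °C and -0.4, 8.2 and 23.1 at 8 °C on 1 probe (13-fold, adjusted p = 0.000305) and fell 7.16-fold on the other (0.000787). Apoa1, the main protein of high density lipoprotein, had signals of 983, 596 and 1076 at 22 °C and 83.9, 91.3 and 145 at 8 °C (7.3-fold, adjusted p = 0.000554), and Hpx, the heme-binding protein hemopexin, 293, 178 and 371 at 22 °C and 31.8, 33.5 and 56.7 at 8 °C (5.19-fold, adjusted p = 0.00101). All passed without each array. The rest of the 10 largest falls of the class were Mup3 (11.7-fold), Mat1a, which makes S-adenosylmethionine (8.48-fold), Apoc4 (8.38-fold), the fetuin Ahsg (7.02-fold), Ugt2b36, a glucuronosyltransferase (at least 4.95-fold), and the cytochrome P450 Cyp2d9 (6.25-fold), with adjusted p from 0.000305 to 0.0012.

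By function, 12 of 16 plasma protease inhibitors and fetuins fell, 12 of 23 cytochromes P450, 7 of 15 apolipoproteins, 7 of 9 coagulation factors, 7 of 11 enzymes of the urea cycle and amino acid breakdown, 3 of 16 conjugating enzymes and 2 of 2 major urinary proteins. None of their members rose (0 were higher before adjustment too), beside 1.17% higher and 1.71% lower over all tested probes. The counts are a description, because members detected at 22 °C alone entered the test only through the group where they were high. Detected on all 6 arrays were 6 of the 16 protease inhibitors, 5 of 23 cytochromes P450, 8 of 15 apolipoproteins and 3 of 9 coagulation factors. For the urea cycle and amino acid breakdown it was 4 of 11, for conjugating enzymes 13 of 16 and for urinary proteins 2 of 2. List medians ran from -0.53 for conjugating enzymes to -3.86 for the urinary proteins. Of 11 tested hepatocyte markers 9 fell, and 6 of the 11 were detected on all 6 arrays. Cyp2e1, an ethanol-oxidizing P450, had signals of 4162, 743 and 2507 at 22 °C and 746, 748 and 535 at 8 °C, so that room temperature replicate 2 lay among the cold arrays (adjusted p = 0.104). Hnf4a, the master transcription factor of the hepatocyte, was dim at 21.4, 19.6 and 41.9 at 22 °C and 26.1, 10.1 and 15.9 at 8 °C and did not pass (log2 -0.35, adjusted p = 0.429). Probes of Alb, Serpinc1, Fgb and Tat were detected on no BAT array, and read at most 14.5 on average on the White arrays too.

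**Figure D4:**
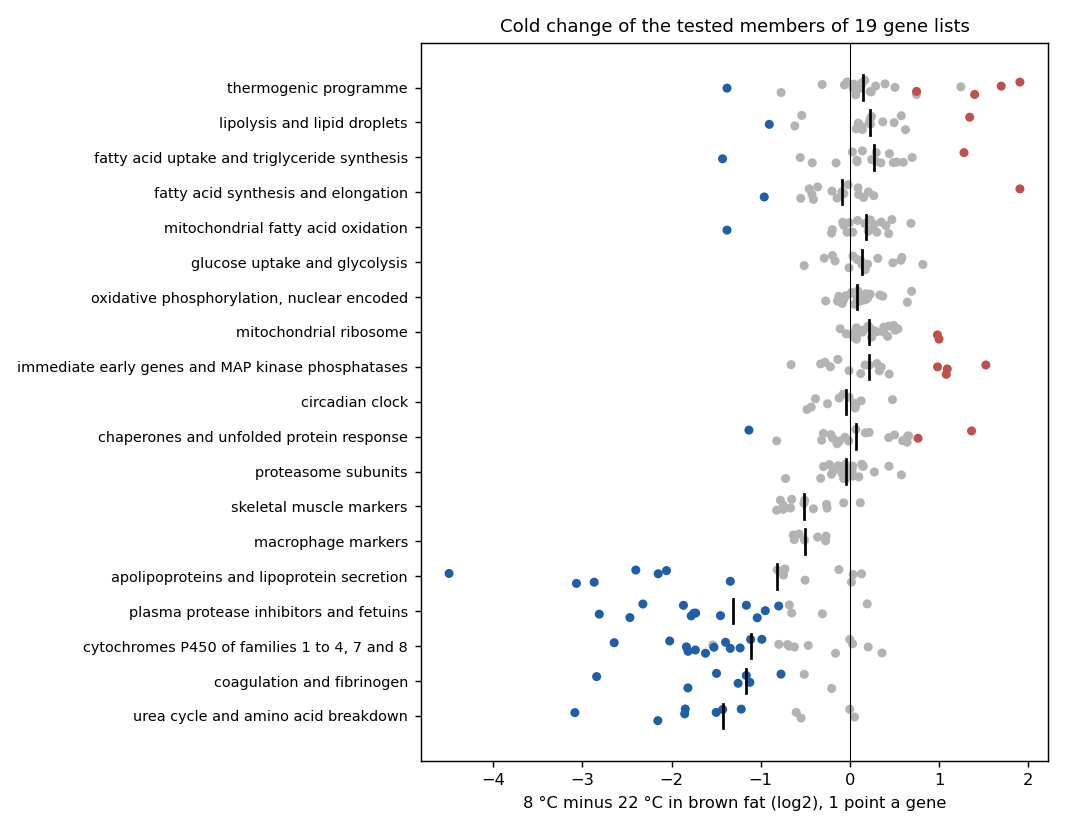
Each point is a tested gene of the list named on the left, placed by its log2 difference between 8 °C and 22 °C in BAT; red points rose, blue points fell, grey points did not pass and black bars are list medians. The 5 lists of liver products at the bottom have medians from -0.81 to -1.43 (conjugating enzymes and urinary proteins are not drawn), and the lists of fuel use and mitochondria lie between -0.09 and 0.27.

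The share of probes that fell differed by brightness on the White arrays, given here as a description. Probes 2 to 3 log2 units brighter there had 8 of 226 lower (3.54%), those 3 to 5 units brighter 18 of 214 (8.41%), and those 5 or more units brighter 90 of 151 (59.6%), with 0 higher. Of those 151, 25 were detected on all 6 BAT arrays, and the others include probes that entered the test only through the room temperature group. Close to the limit of the class, 1 of 44 probes just inside (3 to 3.25) and 3 of 43 just outside (2.75 to 3) fell. For the 151 brightest probes the room temperature signal was a median of 1.29% of the White signal, with 10% of probes under 0.892% and 10% over 2.32%. The highest was 8.83%, for Mup3. In the cold the median was 0.169%, and 149 of the 151 had a lower mean in the cold.

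Single arrays followed each other across these probes. Over all 365 White-bright probes the median signal was 3.08%, 2.51% and 3.01% of the White mean at 22 °C and 1.86%, 1.60% and 1.78% at 8 °C. Over the 214 probes at least 20-fold brighter on White it was 1.71%, 1.13% and 1.84%, and 0.466%, 0.441% and 0.552%. Of the 108 White-bright probes that fell, room temperature replicate 2 was the lowest room temperature array for 93, and replicates 1 and 3 for 9 and 6. Among the 158 falls outside the class the lowest room temperature array was replicate 1, 2 and 3 for 47, 71 and 40. Cold arrays were compared over probes detected on every cold array. Of 33 such White-bright falls, cold replicate 1, 2 and 3 was the lowest for 15, 9 and 9. Of 116 such falls outside the class it was the lowest for 28, 19 and 69. Of 180 rises outside the class, cold replicate 1, 2 and 3 was the highest for 39, 23 and 118. All 11 tested hepatocyte markers are themselves White-bright, so their sum is no separate measure. A smaller amount of hepatocyte-type RNA on the cold arrays and a lower level of these transcripts within brown fat cannot be told apart here.

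**Figure D5:**
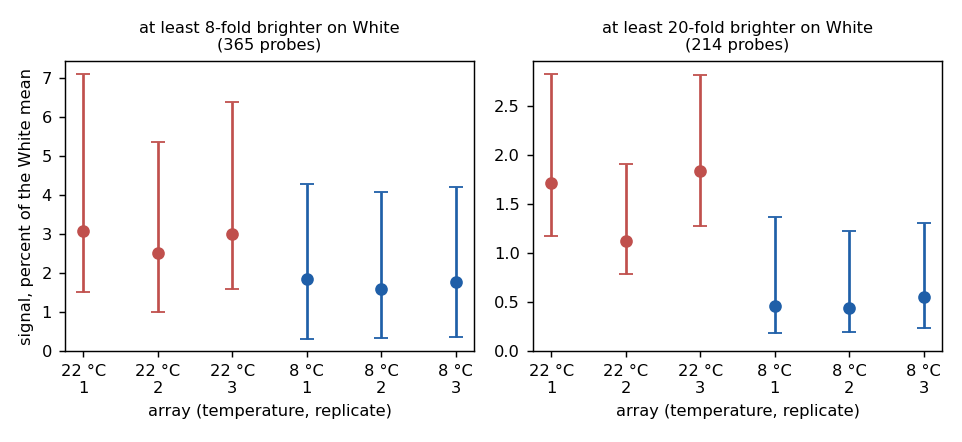
Median (point) and quartiles (bars) of the signal of White-bright probes on each BAT array, as a percent of their mean signal on the White arrays, for 365 probes at least 8-fold brighter on White (left) and 214 at least 20-fold brighter (right). The 3 arrays at 22 °C lie above the 3 at 8 °C in both panels, with room temperature replicate 2 the lowest of the red points.

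A pair of White-bright probes went the other way. Mfsd2a, a transporter of lysophospholipids, had signals of 4, 4.2 and 4.8 at 22 °C and 206, 27.5 and 436 at 8 °C and was not detected at 22 °C. It rose at least 5.88-fold (adjusted p = 0.0386), and the call was lost without any one of 5 arrays (up to 0.159, without cold replicate 1). Tmem82, a membrane protein, had signals of 19.9, 29.2 and 14.1 at 22 °C and 104, 72.6 and 201 at 8 °C and rose 3.63-fold (adjusted p = 0.00673, and 0.0597 with no background correction). It passed without each array. In both the groups did not overlap.

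Promoters of the called genes were read for 6 short motifs on both strands, over 250 bases before to 50 after the RefSeq start (GRCm38.p6), for 7021 of the 8591 named genes tested. The palindromic cyclic AMP response element TGACGTCA lay in 3.18% of all 7021 windows, in 5 of 108 (4.63%) of the genes that rose outside the White-bright class, in 5 of 88 (5.68%) of those that fell there and in 0 of 74 of the White-bright genes that fell. It lay in 0 of 228 of all White-bright genes tested. The 2 cold-induced genes printed here carry it. The element starts 95 bases before the start of Dio2 (chr12:90739039-90739288, minus strand), and 143 before that of Dusp1 (chr17:26508473-26508722, minus strand). Each line gives the 250 bases before the start, 5′ to 3′, with the element and, in Dio2, the TATAAA box in capitals.
Dio2: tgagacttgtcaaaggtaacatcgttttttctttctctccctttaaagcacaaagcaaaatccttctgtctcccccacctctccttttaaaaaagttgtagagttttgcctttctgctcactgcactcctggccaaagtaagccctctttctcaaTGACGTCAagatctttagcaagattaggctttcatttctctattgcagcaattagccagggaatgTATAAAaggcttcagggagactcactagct
Dusp1: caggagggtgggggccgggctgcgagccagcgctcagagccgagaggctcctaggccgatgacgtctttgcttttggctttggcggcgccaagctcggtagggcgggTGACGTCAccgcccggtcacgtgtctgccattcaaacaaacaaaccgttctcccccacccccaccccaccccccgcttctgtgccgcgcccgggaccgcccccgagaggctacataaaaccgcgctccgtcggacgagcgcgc

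Motifs of liver promoters were read in the same windows of the White-bright genes that fell, with no test of the shares. GTTAAT, a half-site of the hepatocyte factor HNF1, lay in 17 of 74 (23.0%), beside 4.33% of all windows and 32 of 228 (14.0%) of all White-bright genes tested, which include those 74. TATAAA lay in 23 of 74 (31.1%), beside 8.08% and 19.3%. The HNF4 site CAAAGTCCA lay in 3 of 74 (4.05%), beside 0.385% of all windows and 6 of 228 (2.63%) of all White-bright genes tested. The 3 were Cyp2c70, Cyp3a11 and Cyp8b1. The shares outside the class were close to those of all windows for GTTAAT (6.48% of genes that rose and 6.82% of those that fell). A match is a run of letters and was not tested as a site. The printed examples are Cyp8b1, the sterol 12-alpha-hydroxylase of bile acid synthesis (chr9:121916306-121916555, minus strand), with the HNF4 letters 67 bases before the start and the TATAAA box in capitals, and Fga (chr3:83025903-83026152, plus strand) and Itih1, the heavy chain of a plasma protease inhibitor (chr14:30943290-30943539, minus strand), with the HNF1 half-site read as ATTAAC 43 and 27 bases before the start.
Cyp8b1: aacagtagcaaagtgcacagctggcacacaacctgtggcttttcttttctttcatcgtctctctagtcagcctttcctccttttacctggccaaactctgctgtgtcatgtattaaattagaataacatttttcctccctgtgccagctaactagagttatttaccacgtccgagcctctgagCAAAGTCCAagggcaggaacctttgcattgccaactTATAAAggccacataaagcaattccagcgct
Fga: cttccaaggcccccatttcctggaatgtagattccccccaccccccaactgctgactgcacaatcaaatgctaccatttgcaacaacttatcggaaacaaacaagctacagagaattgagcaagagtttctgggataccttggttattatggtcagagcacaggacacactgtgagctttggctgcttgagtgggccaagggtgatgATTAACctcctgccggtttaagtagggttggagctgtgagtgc
Itih1: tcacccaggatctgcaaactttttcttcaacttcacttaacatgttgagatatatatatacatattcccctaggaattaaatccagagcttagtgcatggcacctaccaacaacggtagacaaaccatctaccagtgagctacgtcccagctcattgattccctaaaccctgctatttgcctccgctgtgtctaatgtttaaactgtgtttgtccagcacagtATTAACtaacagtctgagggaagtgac
Cyp8b1 had signals of 48.8, 34.5 and 96.1 at 22 °C and 10.4, 1.3 and 16.8 at 8 °C and fell 2.63-fold (adjusted p = 0.0208, and 0.0948 without cold replicate 1). Itih1 had signals of 116, 52.5 and 112 at 22 °C and -8.7, -5.6 and 2.8 at 8 °C, was not detected in the cold and fell at least 3.55-fold (adjusted p = 0.00083).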

How the data were processed

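RNA of BAT from 3 room temperature and 3 cold mice was amplified with an Illumina kit and hybridized to MouseWG-6 arrays by the authors. The deposited intensity values were background-subtracted by the authors, with 38% below 0 on each BAT array and near-equal quartiles, and the method is not given in the sources used here. A score from 0 to 1, rising with the signal, was deposited with each of them as the measure of detection. The authors also deposited a log2 table, which equals log2 of signals floored at 5 minus the probe's median (within 2.54e-06; 57.5% of signals lay under the floor).

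In R 4.3.3, neqc from limma 3.58.1 corrected the background (offset 16, negative controls inferred from the scores). The log2 values were quantile-normalized over the 6 arrays and fitted with lmFit and eBayes, and p-values were adjusted by Benjamini-Hochberg over 15515 probes. A probe with no score of 0.95 or more in 1 group has only a bound there ("at least"), taken from each array's lowest detected signal. A probe was called at an adjusted p under 0.05. The White-bright class used the mean over the 6 White and all 6 BAT arrays, normalized together. A gene on a list is represented by its brightest tested probe. Of the probes 25349 have 1 gene symbol and 21294 none, and 1937 genes had more than 1 tested probe. Of these genes 116 had at least 1 probe called, and in 14 of the 116 all tested probes were called the same way. No probe of a gene was called against another.

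Named were Ucp1, Elovl3 and Dio2, the 10 largest called changes per class and direction, list members that passed, were apart or were brightest, and genes named in the study's account of BAT. Members and lists were chosen with earlier results of these data known. Alternatives covered background, scaling, filter, variance model, replicate block, threshold and each array left out. Tested on simulated data with 50 probes changed per size among 15515, the fit recovered 0, 30, 49 and 50 of those changed by 0.5, 1, 2 and 3 log2 units, and 3 of 132 calls were false. The simulation drew each probe independently and held no shift of many probes on a single array. Its share of false calls therefore does not carry over to these data. The number of arrays limits the precision, and p-values measure the spread between these animals.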

Additional observations from a re-analysis of the deposited data

How the results depend on the processing

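No probe called in either direction was called the opposite way under any alternative. Counts are given as higher and lower over all probes, then outside the White-bright class. They were 40 and 139, then 40 and 58, with no background correction, 40 and 138, then 40 and 58, on the authors' value table, 100 and 166, then 100 and 90, at a score of at least 0.6, and 33 and 42, then 33 and 24, with no filter, where p-values are adjusted over all 46643 probes. An adjusted p under 0.1 gave 472 and 542, then 468 and 402, and an intensity trend with robust variances 320 higher, then 319 and 254. A fit of all 16 arrays gave 175 lower, then 96. A score of at least 0.95 on all 6 arrays gave 169 higher and 151 lower, so that rises outnumbered falls. The methods' t-test at 2-fold gave 478 lower, then 333, and the same after Benjamini-Hochberg gave 1 and 9, then 1 and 5. White-bright falls numbered 32 with detection on all 6 arrays, 18 with no filter and 4 with that t-test after adjustment. Leaving out 1 array gave 51 to 276 higher and 125 to 343 lower, 50 to 273 and 49 to 245 outside the class, and 76 to 122 White-bright falls. Without each array in turn 33 of 180 rises and 31 of 158 falls outside the class held, and 72 of 108 White-bright falls. Probes apart by 2-fold numbered 93 and 174, by 1.5-fold 546 and 644, with the larger offset (50) 40 and 84, and without background correction 332 and 615. The White-bright level averaged 2.87% at room temperature and 1.75% in the cold, 1.56% and 0.486% for the 20-fold class, and 1.54% in the cold on deposited signals. Ucp1 had a log2 difference of -0.0188 without room temperature replicate 2 and -0.0417 without cold replicate 1, between which and 0.132 all values with 1 array left out lay, uncalled in each.

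Of 40 called genes or probes followed through the limma alternatives, Cenpo and Apoa1 passed in each, and Recql4, Fga, Cyp2d9 and Nr1h4 in each but detection on all 6 arrays, where they were not tested. Recql4 and Nr1h4 were not detected in the cold, so they entered the test only through the room temperature group. The Cenpo probe is the one given above, which is not the brightest tested probe of its gene. The replicate block gave 124 higher and 210 lower. Same-numbered arrays did not deviate together (r = -0.004, -0.086 and -0.024). The titles do not say whether the numbers stand for anything shared, which these correlations cannot exclude, and the main fit did not pair the arrays. Signals near background, as for Dio2 and many White-bright probes in the cold, limit the folds to bounds. The causes of these changes in count were not tested.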

Other observations

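A few genes known in antigen presentation fell in the cold, picked after their values were seen from no fixed list. H2-D1, a class I histocompatibility antigen, had signals of 1605, 1521 and 1581 at 22 °C and 908, 768 and 755 at 8 °C, a fall of 1.93-fold (limma adjusted p = 0.00951) that held without each array and did not pass with no background correction (0.0614) or in a fit of all 16 arrays (0.0838). Psmb8, a subunit of the immunoproteasome, had signals of 414, 517 and 501 at 22 °C and 220.2, 246 and 249.5 at 8 °C (1.93-fold, adjusted p = 0.011). Cd74, the invariant chain, had signals of 554, 722 and 719 at 22 °C and 355, 329.7 and 302 at 8 °C (1.97-fold, adjusted p = 0.012), and the class II gene H2-Aa 97.3, 111 and 88.1 at 22 °C and 37.6, 52.7 and 24.5 at 8 °C (2.17-fold, adjusted p = 0.0163). In all 4 genes the groups did not overlap. The calls of Psmb8, Cd74 and H2-Aa each ended without either of 2 arrays (up to 0.0597, 0.0552 and 0.0754). They did not pass with no background correction either (0.0632, 0.0714 and 0.0951), or in a fit of all 16 arrays (0.327, 0.312 and 0.143). None of 7 tested macrophage markers passed (before adjustment 0 were higher and 4 lower, and the median log2 difference was -0.51), with summed signals of 853 to 1275 at room temperature and 633 to 822 in the cold, and their part in these falls was not tested.

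The 3 mitochondrial genes given next rose and were also picked after their values were seen, from no fixed list. Timm8a1, a chaperone of the intermembrane space, had signals of 252, 223 and 144 at 22 °C and 441, 348 and 539.5 at 8 °C (2.08-fold, adjusted p = 0.0318). Grpel1, a nucleotide exchange factor of the matrix chaperone, had signals of 48.2, 58.3 and 40.4 at 22 °C and 120, 99.7 and 87.5 at 8 °C (1.83-fold, adjusted p = 0.0252). Slc25a35, a mitochondrial carrier, rose 2.15-fold on 1 probe (adjusted p = 0.00788), while a brighter tested probe of the gene was not called. The groups were apart in each. Slc25a35 passed without each array, and the other 2 calls ended without any one of 3 arrays (up to 0.124 and 0.111). With no background correction none of the 3 passed (0.142, 0.0905 and 0.057).

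Retnla, a secreted protein of alternatively activated macrophages and adipose tissue, had signals of 947, 723 and 893 at 22 °C and 316, 314 and 497 at 8 °C (2.25-fold, adjusted p = 0.0132), and its call ended without room temperature replicate 3 or cold replicate 1 (up to 0.0777) or with no background correction (0.0898). Hbb-b2, a beta globin gene, was detected strongly on 1 array, with signals of 13.8, 5.5 and 6.5 at 22 °C and 11.1, 7.9 and 328 at 8 °C. The summed signal of 5 erythroid markers did not follow it, at 17071, 14722 and 14854 at 22 °C and 15946, 12838 and 12486 at 8 °C.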
